A study of Homo sapiens with 4 samples.

Results

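Glutamate handling in U87 cells, an established human glioblastoma line, was followed through 9 genes chosen by symbol from the 58219 genes of the count table. They encode receptor subunits and a relative by name (GRIN2A, GRIN2D, GRIA3, GRIK2 and GRINA), glutamate uptake transporters (SLC1A1, SLC1A2 and SLC1A3) and glutamine synthetase (GLUL). GRIN2A and SLC1A3 were picked for their rise with carnosine, so their difference is given as a description with no test. Carnosine is a natural dipeptide of beta-alanine and histidine. Of 4 libraries of total RNA depleted of ribosomal RNA, 2 came from cells kept for 24 h in fresh medium with 50 mM carnosine and 2 from cells kept as long in medium without it (0 mM, control). The medium of both groups held glucose, serum and GlutaMAX, a stable dipeptide source of glutamine, but no pyruvate. The labels name no genetic change in either group and do not say that replicates were separate cultures, so p values rest on the spread between these libraries, and that spread may be only technical.

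Glutamate is the main excitatory transmitter of the brain. Ionotropic receptors of the NMDA, AMPA and kainate classes are ion channels of 4 subunits that open when glutamate binds, and every NMDA receptor needs the GRIN1 subunit beside its GRIN2 or GRIN3 subunits. Astrocytes clear glutamate through transporters of the SLC1 family and turn it into glutamine with glutamine synthetase. Glioma cells are known to release glutamate through the cystine exchanger SLC7A11.

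The bases before the start sites of GRIN2A and SLC1A3, which were higher with carnosine, are shown beside those of GRIN2D, a relative of GRIN2A that gave no counts. The letters come from RefSeq (GRCh38.p14), which held windows for 6 of the 9 genes, and capitals mark the GC box GGGCGG, searched on both strands (its reverse is CCGCCC). For GRIN2A only 30 bases around a GC box are shown, on the minus strand at chr16:10182068-10182097, since GENCODE 29 places an exon there. The SLC1A3 stretch is the first of 3 RefSeq windows, on the plus strand at chr5:36596338-36596587, and the GRIN2D stretch is on the plus strand at chr19:48393418-48393667. Both of these RefSeq start sites lie before the first base of the gene in GENCODE 29.
GRIN2A: tgcctctccttctctcctCCGCCCcgttag
SLC1A3: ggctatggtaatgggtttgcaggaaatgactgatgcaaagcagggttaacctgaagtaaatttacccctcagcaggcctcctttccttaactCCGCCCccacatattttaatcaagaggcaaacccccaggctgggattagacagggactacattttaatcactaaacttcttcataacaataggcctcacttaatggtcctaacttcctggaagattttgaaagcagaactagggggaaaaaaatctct
GRIN2D: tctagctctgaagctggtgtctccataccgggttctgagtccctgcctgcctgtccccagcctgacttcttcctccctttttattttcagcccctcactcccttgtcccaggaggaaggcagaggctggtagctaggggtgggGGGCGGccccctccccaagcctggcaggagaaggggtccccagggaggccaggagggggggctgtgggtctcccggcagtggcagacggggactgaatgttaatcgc
Over the whole window of 300 bases, GRIN2A held 2 GC boxes, GRIN2D 1 and the first SLC1A3 window 1, as 45.0% of 35116 RefSeq promoter windows held at least 1. The GC content was 68.3% for GRIN2A, 62.3% for GRIN2D and 43.0% for this SLC1A3 window, beside a median of 58.7%. None of the 10 windows of the 6 genes held TGACGTCA (1.85% of all windows), CACGTG (7.26%) or TGTTTAC (3.42%), and TGACNNNGC (13.3%) stood once in the GRIN2A window and once in the second SLC1A3 window. A match describes letters and is not a binding site. GRINA, GRIA3 and SLC1A2 had no window.

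Gene counts summed to between 51632970 and 71766267 per library. Values are given as counts and as CPM, counts per 1000000 counts of a library, with the library size scaled by the trimmed mean of M values (TMM). Of the glioma and astrocyte markers, VIM, CD44 and NES had at least 1426 counts in each library, OLIG2 had between 105 and 253 counts and GFAP between 4 and 16, and S100B and AQP4 had 0 in all libraries. ALDH1L1 and SOX2 had at most 2 counts. Summed CPM of these 9 markers ran from 8200 to 8740 in controls and from 6930 to 7190 with carnosine, with a mean of 7232 and 5606 CPM for VIM and, in the other direction, 1194 and 1420 CPM for CD44. Summed CPM of 5 neuronal markers ran from 26.1 to 28.3 and from 20.4 to 23.4, with RBFOX3 and STMN2 at 0, and that of 4 oligodendrocyte markers was at most 0.258 in any library. Summed CPM of 4 microglial markers ran from 23.1 to 24.6 and from 8.08 to 9.69, nearly all of it CSF1R while AIF1 was at 0. That of 4 endothelial and pericyte markers ran from 4.24 to 4.28 and from 6.59 to 8.48, with means of 2.34 and 5.67 CPM for PECAM1 and 1.67 and 1.38 CPM for RGS5, while CDH5 was at 0. The part of these shifts in the results below was not tested.

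Among 7 NMDA receptor subunits, GRIN2A was the one with more than a few counts. GRIN2A (ENSG00000183454.16, chromosome 16, 9753404 to 10182754, GRCh38, minus strand), which encodes the GluN2A subunit that binds glutamate, had 302 and 189 counts in control replicates 1 and 2 and 1206 and 1161 in carnosine replicates 1 and 2, the order kept below. These are 4.25 and 3.22 CPM against 20.1 and 23.1 CPM, so both carnosine libraries lay far above both controls. The mean went from 3.73 ± 0.73 to 21.6 ± 2.12 CPM (SD, n = 2 each), which is 5.75-fold higher and a log2 fold change of 2.52 ± 0.18 (SE). By size of rise GRIN2A stood in place 86 of 16340 genes tested. In bulk RNA, more RNA per cell and a larger share of cells that hold the RNA cannot be told apart.

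GRIN1 (ENSG00000176884.14, chromosome 9, 137138390 to 137168762), the obligatory subunit, had 0 counts in all 4 libraries. GRIN2D (ENSG00000105464.3, chromosome 19, 48394875 to 48444931) and GRIN3A also had 0 counts in each. A count of 0 allows up to 3 counts, which is 0.0422 CPM in control replicate 1 and 0.0596 CPM in carnosine replicate 2, the deepest and the shallowest library, for counting error only. GRIN2B, GRIN2C and GRIN3B had at most 2 counts in any library. All NMDA subunits other than GRIN2A together gave 1 and 3 counts in controls, 2 and 1 after carnosine. Some neighbours of these uncounted subunits had counts: GRWD1, 0.8 kb from GRIN2D, had between 2126 and 3922 counts, and ANAPC2, 6.0 kb from GRIN1, between 2575 and 4312, though LRRC26 and TMEM210, which lie closer to GRIN1, had at most 1.

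**Figure D1:**
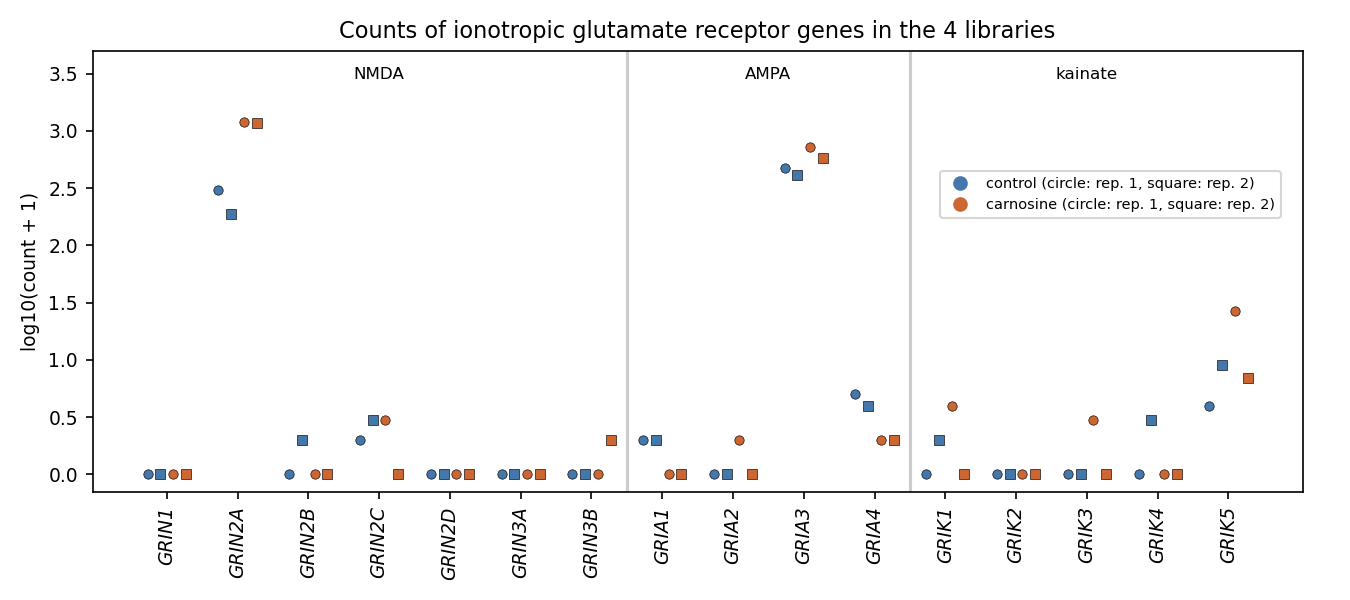
Counts of the 7 NMDA, 4 AMPA and 5 kainate receptor subunit genes as log10(count + 1), with controls in blue and carnosine in orange (circle, replicate 1; square, replicate 2). GRIN2A (189 to 1206 counts) and GRIA3 (413 to 727 counts) stand above the other subunits shown, and GRIN1, GRIN2D and GRIK2 lie at 0 in all 4 libraries.

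GRIA3 (ENSG00000125675.17, chromosome X, 123184153 to 123490915), an AMPA receptor subunit, rose. Its counts were 470 and 413 in the control libraries against 727 and 580 in the treated ones, or 6.61 and 7.04 CPM against 12.1 and 11.5 CPM. The groups did not overlap, as was the case for 56.5% of all genes tested. The mean went from 6.82 ± 0.30 to 11.8 ± 0.40 CPM (SD, n = 2 each), a 1.73-fold rise (log2 fold change 0.79 ± 0.14 SE; edgeR's quasi-likelihood test, adjusted p = 0.0246). Its call ended without control replicate 1 (log2 fold change 0.74, adjusted p = 0.0917) and without control replicate 2 (0.83, adjusted p = 0.0668). The other AMPA subunits GRIA1, GRIA2 and GRIA4 had at most 4 counts in a library.

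The kainate receptor subunit GRIK2 (ENSG00000164418.19, chromosome 6, 101181257 to 102070083) had 0 counts in all 4 libraries, and its nearest protein-coding neighbour ASCC3, 299.9 kb away, had between 5576 and 8035. GRIK5 had 3 and 8 counts in controls, 26 and 6 after carnosine, too few to be tested. Of the 18 ionotropic subunits in the table, the 16 other than GRIN2A and GRIA3 together gave 9 and 18 counts in controls, 35 and 8 after carnosine. 6 of these 16 had 0 counts throughout, among them GRIN1, GRIN2D, GRIN3A and GRIK2. Among metabotropic receptors, which signal through G proteins, GRM8 had 21 and 12 counts in controls, 17 and 4 after carnosine (log2 fold change -0.44 ± 0.69, adjusted p = 0.735).

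GRINA (ENSG00000178719.16, chromosome 8, 143990058 to 143993415) carries a glutamate receptor name but belongs to the TMBIM family of membrane proteins, which are known for roles in calcium balance and cell survival, and is no channel subunit. Its counts were 7765 and 6503 in the control libraries against 6980 and 6041 in the treated ones, or 109.2 and 110.8 CPM against 116.1 and 119.96 CPM. Both carnosine libraries lay above both controls, but the difference was small (log2 fold change 0.10 ± 0.09 SE, adjusted p = 0.546). PARP10, on the other strand, covers 12.8% of its exonic bases with exons of its own, and whether reads were counted by strand is unknown. In edgeR 8.31% of all genes tested passed, and 4472 of 16340 had an unadjusted p under 0.05. Of the 6 TMBIM genes 0 passed in edgeR, DESeq2 or limma-voom, with 1 at an unadjusted p under 0.05 in edgeR. The most counted were TMBIM6 (log2 fold change 0.04 ± 0.12, adjusted p = 0.863) and GHITM (-0.08 ± 0.10, adjusted p = 0.685), which, like GRINA, sit in membranes inside the cell. The gene at that unadjusted p was FAIM2, with 32.6 ± 11.7 CPM in controls and 49.5 ± 10.3 CPM with carnosine (SD, n = 2 each; log2 fold change 0.60 ± 0.25, adjusted p = 0.175, edgeR).

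The uptake transporters differed in size and in spread. SLC1A3 (ENSG00000079215.13, chromosome 5, 36606355 to 36688334), the astrocytic transporter EAAT1 or GLAST, gave 4989 and 4990 counts without carnosine and 8267 and 9484 after it. These are 70.2 and 85.0 CPM against 137.5 and 188.3 CPM, with every carnosine value above every control. The mean was 77.6 ± 10.5 CPM in controls and 162.9 ± 36.0 CPM with carnosine (SD, n = 2 each), and the fitted log2 fold change was 1.07 ± 0.17 (SE). Without carnosine replicate 2 it was 0.82 and without carnosine replicate 1 it was 1.28.

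SLC1A1 (ENSG00000106688.11, chromosome 9, 4490444 to 4587469), the transporter EAAT3 that is best known from neurons, gave 4737 and 2476 counts without carnosine and 4020 and 2932 after it. These are 66.6 and 42.2 CPM against 66.8 and 58.2 CPM, so the groups overlapped. The log2 fold change was 0.20 ± 0.20 (SE; edgeR, adjusted p = 0.583), and without control replicate 2 it turned to -0.095 (adjusted p = 0.837). SLC1A2 (ENSG00000110436.11, chromosome 11, 35251205 to 35420063), the transporter EAAT2 or GLT-1 that carries most uptake in the forebrain, was scarce. Its counts were 166 and 86 in the control libraries against 192 and 138 in the treated ones, or 2.33 and 1.47 CPM against 3.19 and 2.74 CPM. The groups did not overlap, yet the log2 fold change of 0.64 ± 0.29 (SE) did not pass (adjusted p = 0.213, edgeR).

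**Figure D2:**
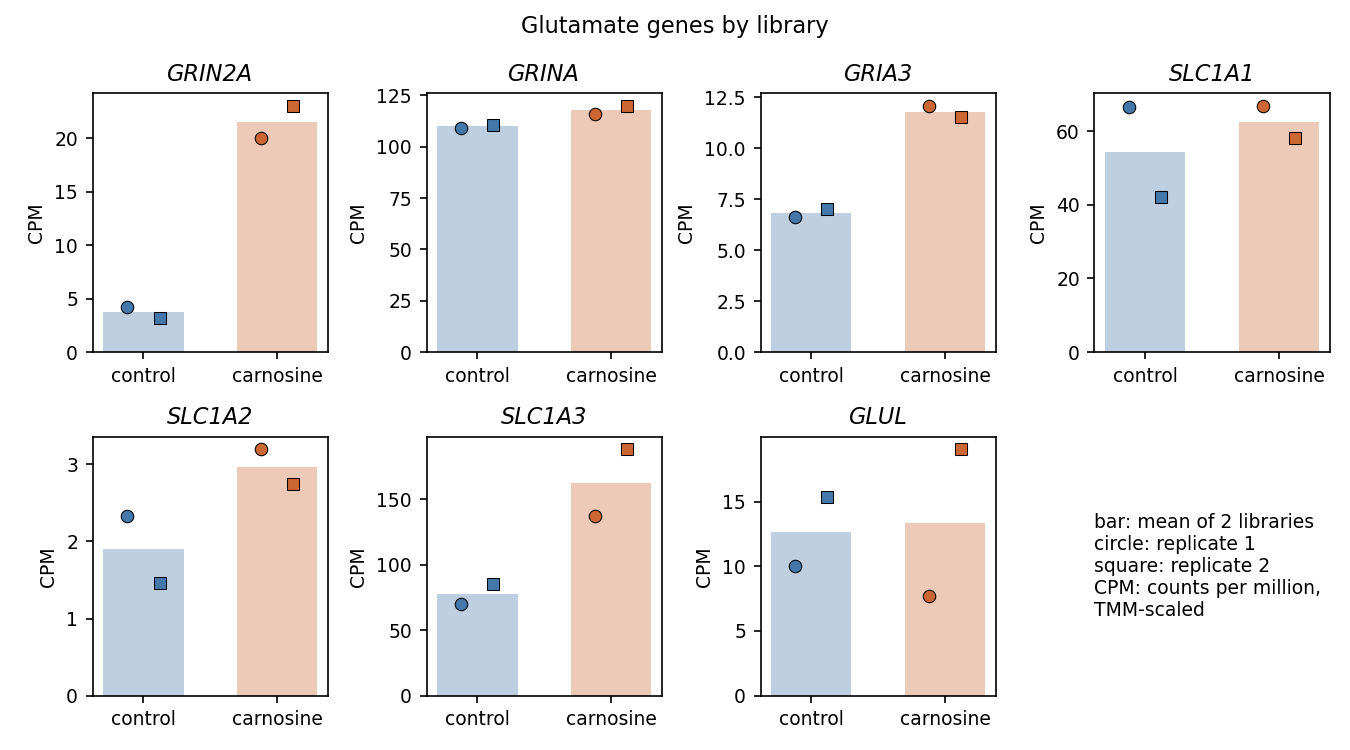
CPM of the 7 tested genes in each library, where bars are means of 2 libraries from 0, circles replicate 1 and squares replicate 2. GRIN2A, GRIA3 and SLC1A3 have both carnosine libraries well above both controls (20.1 and 23.1 against 4.25 and 3.22 CPM for GRIN2A), while SLC1A1 and GLUL overlap between groups.

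GLUL (ENSG00000135821.17, chromosome 1, 182381704 to 182392206), glutamine synthetase, gave 710 and 901 counts without carnosine and 463 and 959 after it. These are 9.99 and 15.4 CPM against 7.70 and 19.0 CPM, so the carnosine libraries held both the lowest and the highest value. The log2 fold change was 0.08 ± 0.40 (SE, adjusted p = 0.928, edgeR), and it was -0.72 without carnosine replicate 2 and -0.21 without control replicate 1. On the log2 scale of CPM + 0.5, carnosine replicate 1 lay below replicate 2 by a difference of -1.25, larger in size than in 99.7% of genes tested, and the controls differed by -0.60 (96.2%). GLUL has processed pseudogenes that resemble it, of which GLULP4, GLULP5 and GLULP6 are in the table with at most 1 count in any library.

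The spread between replicates set the members apart from each other. GRINA and GRIA3 differed by at most 0.084 (log2, either direction) between libraries of a group, larger than in at most 33.0% of genes tested. In the controls SLC1A1 differed by 0.65 and SLC1A2 by 0.53 with replicate 1 the higher, larger than in 97.1% and 94.5% of genes tested, and with carnosine by 0.20 and 0.19 in the same direction.

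**Figure D3:**
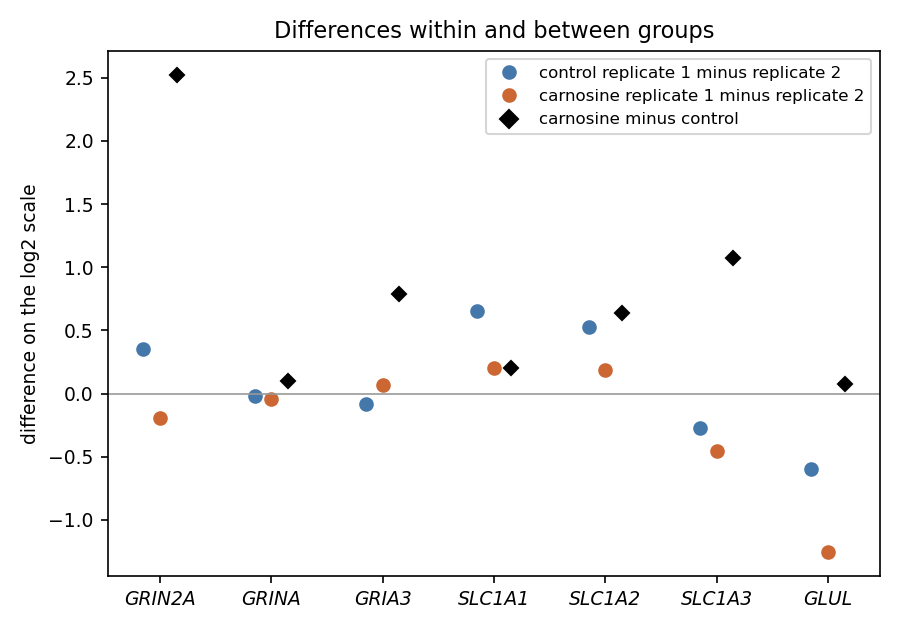
Differences on the log2 scale for the 7 tested genes: replicate 1 minus replicate 2 within controls (blue) and within carnosine (orange), from log2(CPM + 0.5), and the fitted log2 fold change of carnosine against control (black diamonds). GRIA3 has a diamond at 0.79 and replicate differences of at most 0.084, whereas GLUL has a fold change of 0.08 and a replicate difference of -1.25 with carnosine.

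Divided by the exonic length of each gene in GENCODE 29, levels in controls ran from GRINA at 43.5 ± 0.46 CPM per kb (SD, n = 2) down to SLC1A2 at 0.083 ± 0.027 CPM per kb. SLC1A1 (13.6 ± 4.32) and SLC1A3 (12.4 ± 1.68 CPM per kb) overlapped in the controls, and so did not differ beyond their spread. With carnosine SLC1A3 had 21.9 and 30.1 CPM per kb and SLC1A1 had 16.7 and 14.6, so the ranges no longer overlapped. The ratio of SLC1A3 to SLC1A1 on this scale was 0.672 and 1.29 in controls, 1.31 and 2.06 after carnosine. The summed level of SLC1A1, SLC1A2 and SLC1A3 was 28.0 and 24.2 CPM per kb in controls, 38.8 and 44.7 after carnosine. SLC1A3 was picked for its rise, and that choice contributes to the separation from SLC1A1, to the ratio and to the sum. These values are a description with no test.

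GLUL (1.40 ± 0.42) and GRIA3 (1.05 ± 0.05 CPM per kb; SD, n = 2 each) came next in the controls, with 1.11 as the lower value of GLUL and 1.09 as the upper value of GRIA3, so their ranges nearly met. GRIN2A had 0.22 ± 0.04 CPM per kb in controls and 1.29 ± 0.13 with carnosine. The ratio of GRIN2A to GRIA3 was 0.250 and 0.178 in controls, 0.644 and 0.777 after carnosine. GRIN2A was picked for its rise, which contributes to this ratio, so the ratio is a description with no test. Exonic length takes in the exons of every annotated transcript, 22835 bases for SLC1A2 with 50 transcripts and 16696 for GRIN2A with 15, so the level of a gene that uses a short transcript is understated.

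**Figure D4:**
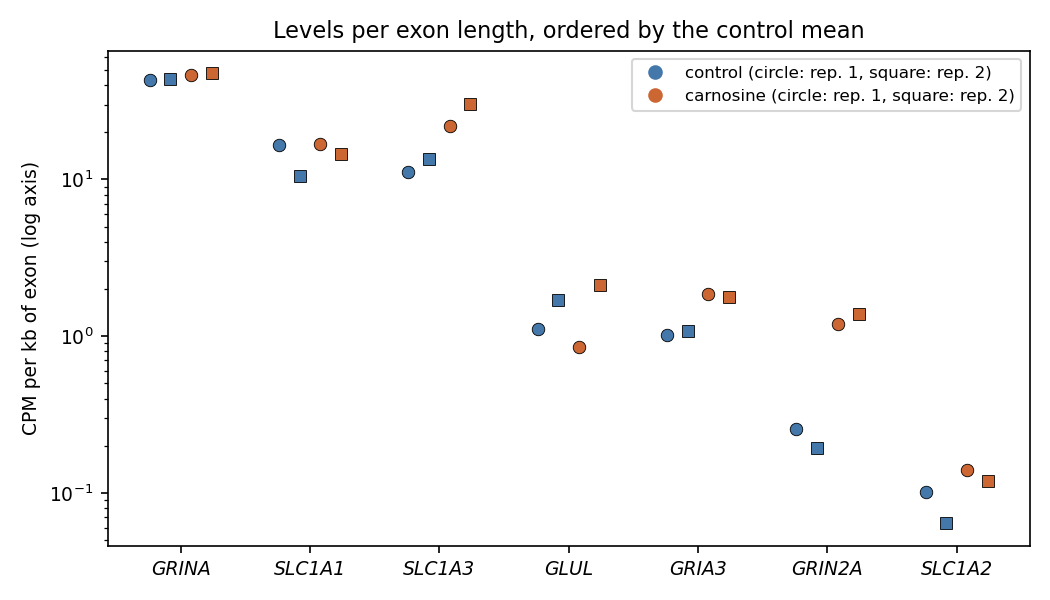
Level of the 7 counted members per exon length, in CPM per kb on a log axis, ordered by the control mean, with controls in blue and carnosine in orange (circle, replicate 1; square, replicate 2). GRINA lies highest (43.5 CPM per kb in controls) and SLC1A2 lowest (0.083), and GRIN2A moves from 0.22 to 1.29.

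Of the 9 members 7 had enough counts to be tested. Beside GRIN2A and SLC1A3, which were picked for their rise, 1 of 5 (GRIA3) passed, where 8.31% of all genes tested did. In 3 of these 5 (GRINA, GRIA3 and SLC1A2) both carnosine libraries lay above both controls, as in 27.8% of all genes tested. All 5 had log2 fold changes above 0, as did 8189 of 16340 genes tested, apart from GLUL, which lay below 0 in limma-voom (-0.05) and in other settings given at the end, and SLC1A1 without control replicate 2 (-0.095). The median over all 7, a value to which the choice of GRIN2A and SLC1A3 contributes, was 0.64 beside 0.001 over all genes tested. The genes whose values in the 4 libraries, centred on their own mean, lay nearest to GRIN2A by Euclidean distance on the log2 scale were PIK3R3 (0.170), a regulatory subunit of phosphoinositide 3-kinase, ARG2 (0.254), the mitochondrial arginase, and CEMIP (0.385), a hyaluronan-binding protein. Nearest to SLC1A3 were TSHZ2 (0.112), a zinc finger protein, DOCK11 (0.129), an activator of CDC42, and MGP (0.171), the matrix Gla protein.

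Around the members, 120 glutamate and glutamine genes, the 9 included, were sorted by role, and 75 could be tested. Without the 9 members 12 of 68 (17.6%) passed, 5 higher and 7 lower, where 3.95% of all genes tested were higher and 4.36% lower. The lists by role were chosen with earlier results of these data known. This share and those of single lists below are therefore not read as support. With the members, which include the 2 genes picked for their rise, the count was 15 of 75 (20.0%), 8 higher and 7 lower, and the settings that follow refer to it. Without scaling beyond library totals the split was 8 higher and 3 lower, and with DESeq2 7 and 10, where GRIP2 had no adjusted p. Leaving out control replicate 1 gave 10 calls and leaving out control replicate 2 gave 5, of which 6 and 5 were among the 15.

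Among enzymes that convert glutamate, besides GLUL, the dehydrogenase GLUD1 had a log2 fold change of -0.03 ± 0.12 and the transaminases GOT1 and GOT2 had 0.23 ± 0.12 and 0.13 ± 0.10, and none of these passed (adjusted p = 0.913, 0.267 and 0.485).

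SLC1A3 was picked for its rise, and of the 4 other tested SLC1 genes 0 passed in edgeR, DESeq2 or limma-voom, with 1 (SLC1A4) at an unadjusted p under 0.05 in edgeR. Of all genes tested 8.31% passed in edgeR, and 4472 of 16340 had an unadjusted p under 0.05. SLC1A4 and SLC1A5, which carry neutral amino acids including glutamine for SLC1A5, had log2 fold changes of 0.38 ± 0.13 and 0.09 ± 0.13 (adjusted p = 0.121 and 0.703, edgeR). These 4 genes lay above 0, except SLC1A5 without control replicate 1 and SLC1A1 without control replicate 2. Exons on the other strand cover 23.8% of the exonic bases of SLC1A5. ARL6IP5, which binds SLC1A1 protein and lowers its transport, rose from 121.0 ± 9.39 to 164.6 ± 2.73 CPM (log2 fold change 0.44 ± 0.11, adjusted p = 0.0496), and leaving out any of the 4 libraries ended this call (adjusted p between 0.0653 and 0.331). SLC38A2, a glutamine transporter, rose 1.49-fold (log2 fold change 0.58 ± 0.13, adjusted p = 0.0430). That call ended without control replicate 1 (log2 fold change 0.566), control replicate 2 (0.585) or carnosine replicate 2 (0.422). Of 5 tested glutamine transporters 1 passed, where 8.31% of all genes tested did, and their median was -0.02.

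SLC7A11, the exchanger that exports glutamate for cystine, fell. Its counts were 3589 and 4002 in the control libraries against 2001 and 1023 in the treated ones, and the mean went from 59.3 ± 12.5 to 26.8 ± 9.16 CPM (log2 fold change -1.14 ± 0.24, adjusted p = 0.0379, edgeR), with an adjusted p of 0.0589 on library totals only. The transcript SLC7A11-AS1 covers 8.97% of its exonic bases from the other strand. Its partner chain SLC3A2 had 163.5 ± 27.6 and 167.2 ± 21.4 CPM (adjusted p = 0.917). SLC25A13, a mitochondrial aspartate and glutamate carrier, had a log2 fold change of -0.40 ± 0.09 and fell (adjusted p = 0.0438), a call lost when any of the 4 libraries was left out (adjusted p between 0.0579 and 0.212) and on library totals only (0.0541). These were 2 of the 6 tested genes among 9 vesicular, mitochondrial and exchange carriers, where 4.36% of all genes tested were lower. The median of the 6 was -0.03, and the vesicular transporters SLC17A6 and SLC17A8 had 0 counts.

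Among enzymes that take nitrogen from glutamine, 3 of 10 tested genes fell and 0 rose (4 and 0 in DESeq2, 3 and 0 in limma-voom). Of all genes tested 4.36% were lower and 3.95% higher in edgeR. All 10 enzyme genes had log2 fold changes below 0, as did 8151 of 16340 genes tested, and their median was -0.39. However, GFPT2 (-0.008) turned above 0 with upper-quartile scaling, on library totals only, without control replicate 2 and without carnosine replicate 1. CTPS1, CTP synthase, went from 154.0 ± 14.7 to 88.5 ± 10.4 CPM (log2 fold change -0.80 ± 0.13, adjusted p = 0.0197, edgeR). PFAS and GMPS of purine synthesis fell by 0.59 ± 0.10 and 0.42 ± 0.10 (adjusted p = 0.0219 and 0.0472). The call of PFAS ended without control replicate 1 (0.0761) or control replicate 2 (0.0756), and that of GMPS when any of the libraries was left out (0.0715 to 0.255) and on library totals only (0.0561). ASNS, asparagine synthetase, had the largest fold change of the group but did not pass, with 95.5 and 112.5 CPM in controls and 51.9 and 15.2 CPM with carnosine (log2 fold change -1.63 ± 0.48, adjusted p = 0.0827).

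**Figure D5:**
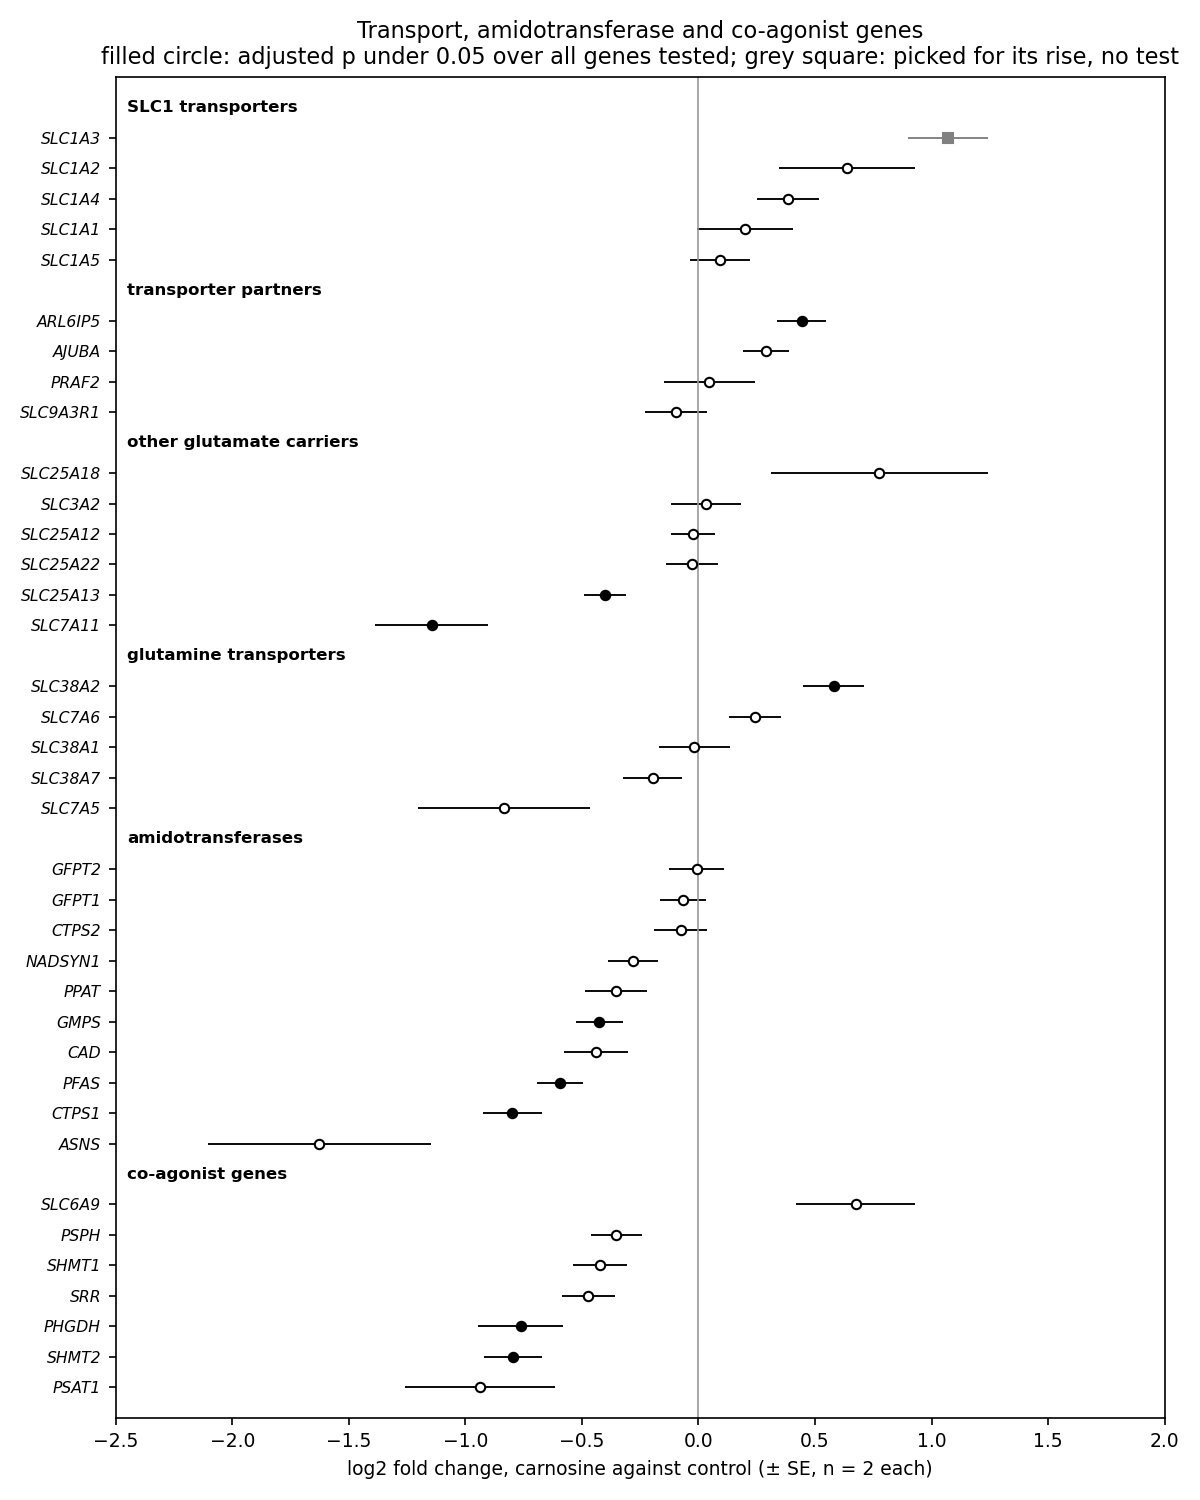
Log2 fold change of carnosine against control (± SE, n = 2 libraries each) for tested genes of glutamate and glutamine transport, of glutamine amidotransferases and of NMDA receptor co-agonist metabolism, grouped by role; filled circles passed an adjusted p of 0.05 over all genes tested, and the grey square is SLC1A3, which was picked for its rise and is shown with no test. SLC38A2 (0.58) lies to the right and SLC7A11 (-1.14) and CTPS1 (-0.80) to the left, and all 10 amidotransferase genes lie left of 0, GFPT2 next to it and above 0 in the settings named before.

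NMDA receptors also need glycine or D-serine as a second ligand. Of 9 genes that make, move or break down these ligands 7 could be tested, 2 fell and 0 rose (4 and 0 in DESeq2, 2 and 0 in limma-voom), and the median was -0.47. Of all genes tested 4.36% were lower and 3.95% higher in edgeR. SHMT2, the mitochondrial enzyme that interconverts serine and glycine, fell with a log2 fold change of -0.80 ± 0.13 (edgeR, adjusted p = 0.0197, and 0.0663 without control replicate 2). PHGDH, the first enzyme of serine synthesis, fell by 0.76 ± 0.18 (adjusted p = 0.0490), a call that ended without control replicate 1 (0.0812) or 2 (0.0782), with RLE (0.0515) or upper-quartile scaling (0.0544) and on library totals only (0.0793). SRR, serine racemase, which makes D-serine, had 22.1 ± 1.44 and 15.96 ± 0.50 CPM and did not pass (adjusted p = 0.0538), and exons on the other strand cover 34.7% of its exonic bases.

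Of 27 auxiliary subunits and scaffolds of glutamate receptors 17 could be tested, 2 rose and 0 fell (1 and 0 in DESeq2, 2 and 0 in limma-voom), with a median of -0.03. The 2 that passed in edgeR were 11.8% of those tested, near the 8.31% of all genes tested. GRIP2, a scaffold that binds AMPA receptor tails, gave 5 and 3 counts without carnosine and 44 and 26 after it. It met the minimum count only in the carnosine libraries, where it was high, so its call, 1 of the 2 here and of the 5 higher among all lists without the members, is not read as support. DLG1, or SAP97, a scaffold of AMPA and NMDA receptors with many other partners, rose from 144.1 ± 7.70 to 213.0 ± 12.1 CPM (SD, n = 2 each; log2 fold change 0.56 ± 0.11, adjusted p = 0.0291), a call lost when control replicate 1 (0.162) or control replicate 2 (0.102) was left out. NETO2, an auxiliary subunit of kainate receptors, had 113.8 ± 6.93 and 148.2 ± 29.5 CPM (adjusted p = 0.157), and the AMPA auxiliary genes CACNG3, CACNG4, CACNG5, CACNG7 and CACNG8 had 0 counts in all libraries.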

How the data were processed

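RNA of 4 libraries was sequenced as pairs of 101 bases. The authors deposited whole-number gene counts that were not normalized. The submitters' processing notes name HISAT2 2.1.0, HTSeq 0.6.1, bcl2fastq 2.17.0 and the build hg38, without their roles. Strand setting, annotation release and treatment of reads with several matches: not given in the sources used here. Columns were matched to samples by title.

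Genes were kept by edgeR's filterByExpr (minimum count of 10), which left 16340 of 58219. The comparison used edgeR 4.0.16 in R 4.3.3 (quasi-likelihood F test, two-sided, TMM scaling, group as the only term, Benjamini-Hochberg adjustment over all genes tested, threshold 0.05), and was tested on simulated data. There edgeR recovered 25.4% of 67 changes of 1.5-fold, 62.7% of 67 of 2-fold and 84.8% of 66 of 4-fold. Of its 128 calls in the simulated data 13 were false. The SE is the absolute log2 fold change divided by the square root of F. DESeq2 1.42.0, limma-voom (limma 3.58.1), other scalings, filters, a replicate block and fits without each library were the alternatives. Positions and exon lengths are from GENCODE 29 (GRCh38), in which 57881 genes matched by identifier. GENCODE holds 3 members (GRIK2, SLC1A2 and GLUL) in another version than the table.

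Some genes of the lists enter the counts but are not reported here by name. The members and lists were chosen with earlier results of these data known. Named genes were the members, up to 4 passing genes per list by size of change or, where none passed, the 2 with the most counts, GLUL pseudogenes, and the 3 genes nearest to GRIN2A and to SLC1A3. Silent genes, GRIK5, FAIM2, GLUD1, GOT1, GOT2, SLC1A4, SLC1A5, SLC3A2, ASNS, SRR, NETO2, RANBP3L and the other neighbouring genes lie outside that rule, and their values were known when they were chosen.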

Additional observations from a re-analysis of the deposited data

How the results depend on the processing

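With 2 libraries a group, many small changes could not be resolved, those of scarce genes among them. Over all genes, the 645 higher and 713 lower calls became 1033 and 1178 with DESeq2, 1514 and 1631 with no filter on low counts, and 2771 and 2996 with a replicate block. Among the 120 glutamate and glutamine genes, the 8 higher and 7 lower calls became 16 and 15 with no filter and 23 and 18 with the replicate block, and the lower calls became 3 on library totals only. Without 1 library at a time, calls over all genes ran from 235 to 729 higher and from 270 to 866 lower, and those of the glutamate lists from 3 to 7 higher and from 2 to 10 lower. Such fits have 1 residual degree of freedom fewer and assume that a lone library varies like the other group. The fold change of GLUL turned to -0.05 in limma-voom, -0.018 with the replicate block and -0.209 without control replicate 1. Without 1 library at a time it ran from -0.721 (without carnosine replicate 2) to 0.588, and that of SLC1A1 from -0.095 (without control replicate 2) to 0.564. The cause was not tested. Libraries with the same number share only that number in the labels. Their deviations from the group means correlated across genes (r = 0.451), and in the replicate block SLC1A1 (0.231, adjusted p = 0.0159) and SLC1A2 (0.66, adjusted p = 0.0157) were called. GRIN2A and SLC1A3 had log2 fold changes from 2.34 to 2.74 and from 0.82 to 1.28 over all settings.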

Other observations

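SLC1A3 lies 304.2 kb from RANBP3L on chromosome 5. RANBP3L, a nuclear export factor for SMAD proteins, gave 52 and 25 counts without carnosine and 759 and 555 after it (log2 fold change 4.33 ± 0.27 SE). It was named with its rise known, so its values are a description with no test. NIPBL, a cohesin loader 188.4 kb from SLC1A3 and its nearest protein-coding neighbour, gave 10991 and 8866 counts without carnosine and 10742 and 8465 after it. Of neighbours further out, SKP2 gave 6396 and 4942 counts against 3634 and 3387, and LMBRD2 3081 and 2528 against 2163 and 1889. NADK2 gave 1975 and 1607 counts against 2025 and 1777, and CPLANE1 2330 and 2516 against 2752 and 2368.

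The carnosine libraries differed from each other in several glutamine and serine genes. ASNS was 3.41-fold, SLC7A5 1.97-fold, PSAT1 1.85-fold and SLC7A11 1.64-fold higher in carnosine replicate 1 than in replicate 2 by CPM, while GLUL was 2.47-fold higher in replicate 2. The difference of ASNS was larger than in 99.9% of genes tested, and that of SLC7A5 than in 99.0%. In the controls ASNS had 95.5 and 112.5 CPM and SLC7A5 31.3 and 58.5 CPM in replicates 1 and 2. These differences lie within groups, have no test and bear on the SE of each named gene.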
